A study of Arabidopsis thaliana with 36 samples.

Results

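Genes of cytosolic ribosomal proteins, which build the translation machinery of the cell, were followed through 4 tissues and 3 genotypes of Arabidopsis thaliana. The set held 37 of the 28775 loci in the deposited count tables, chosen by locus identifier as genes of cytosolic ribosomal proteins. The choice was made with earlier results of these data known, and the 37 are a part of the family. Of these, 17 encode proteins of the small (40S) subunit and 20 proteins of the large (60S) subunit, and RefSeq describes each of the 37 products as a ribosomal protein or as a member of a ribosomal or S10 domain family. The small subunit loci named here were RPS6A (AT4G31700), RPS6B (AT5G10360), RPS18A (AT1G22780), RPS18C (AT4G09800), AT3G60770, RPS13A (AT4G00100), RS27A (AT3G61110), RPS15A (AT1G07770), RPS10B (AT5G41520), AT3G53890, AT3G04920, RPSAA (AT1G72370), RPSAb (AT3G04770), AT2G31610 and AT5G20290. The large subunit loci were RPL3A (AT1G43170), AT3G09630, AT5G02870, RPL5A (AT3G25520), RPL5B (AT5G39740), RPL10A (AT1G14320), EMB2296 (AT2G18020), RPL23AA (AT2G39460), RPL23AB (AT3G55280), RPL24A (AT2G36620), RPL24B (AT3G53020), AT2G19730, AT1G70600, RPL18 (AT3G05590), AT2G43460, AT3G59540, AT2G01250, PGY1 (AT2G27530), RPL16A (AT2G42740) and RPL36aB (AT4G14320). The groups were plants labelled triple mutant, plants labelled quintuple mutant and wild type (WT, ecotype Col-0), each sampled as flowers, rosette buds, sink leaves and source leaves with 3 biological replicates, so 36 libraries in 12 groups. The series title names S1 basic leucine zipper (bZIP) transcription factors, and its design text calls the plants triple and quintuple bZIP mutants. The labels give neither the mutated loci nor the alleles, so the mutations were not checked here, and they list no treatment. All plants grew on soil in long days of 16 h light and 8 h darkness and were raised to the onset of flowering, and every library was made from poly-A RNA.

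A cytosolic ribosome is assembled in the nucleolus from ribosomal RNA and its set of ribosomal proteins, and then exported to the cytoplasm. In plants each of these proteins is encoded by a small family of similar genes (paralogs), so that an "A" and a "B" gene can supply the same position in the ribosome. Transcripts of these genes are abundant in growing and dividing tissue, and their synthesis and translation respond to sugar and to the TOR kinase pathway, whose S6 kinases phosphorylate ribosomal protein S6. Mutants of RPS18A and RPS13A have pointed first leaves, those of PGY1 altered leaf polarity, and EMB2296 takes its name from embryo arrest. S1 bZIP factors are transcription factors linked to low energy signalling and to the control of amino acid and sugar metabolism.

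Levels are CPM, the counts of a locus relative to the scaled library total, computed from the deposited raw counts with 1 set of TMM factors over all 36 libraries, and n = 3 libraries per group throughout. Library totals ran between 18158887 and 25124369 counts, and the lowest count of any of the 37 loci in any library was 32. All 37 passed the filter on low counts in each comparison. Known tissue markers followed the labels in WT: AP3 (AT3G54340), needed for petals and stamens, averaged 66.4 CPM in flowers and 4.03 CPM in rosette buds and stood below 1 CPM in both leaf groups, while BRC1 (AT3G18550), a repressor of bud outgrowth, averaged 22.6 CPM in rosette buds. In the quintuple mutant AP3 averaged 38.5 CPM in flowers and 0.954 CPM in buds. BRC1 did not follow the labels there, with 24.5 CPM in flowers and 12.6 CPM in buds. In rosette buds, sink leaves and source leaves of the quintuple mutant, replicate 1 had the highest summed level of the 37 loci. In source leaves replicate 3 lay farther below replicate 2 than replicate 1 lay above it. Counts of called loci in these 3 tissues are therefore given with and without replicate 1. The libraries are bulk tissue, in which fewer growing cells and less of these transcripts per cell cannot be told apart.

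The stretch upstream of each gene start was read from the RefSeq assembly TAIR10.1 and searched over 250 bases on both strands for letters that recur in promoters of ribosomal protein genes. The site II core, searched as TGGGCC or TGGGCT, was present in 22 of the 37 members (59.5%), against 19.2% of 27443 annotated gene starts. The telo-box, searched as AAACCCTA, was present in 6 of the 37 (16.2%), against 4.49% of all gene starts, and 4 members had both. The palindromes CACGTG and GACGTC, letters that bZIP proteins can bind, were present in 2 members (5.41%) and 3 members (8.11%), against 6.49% and 2.27% of all gene starts, and ACTCAT, found in promoters of bZIP-regulated proline catabolism genes, in 4 members (10.8%), against 12.3% of all gene starts. The RPS6, RPL24 and RPL4 paralogs, compared library by library below, are shown with 150 bases each, 5′ to 3′ and ending at the base before the annotated start, to show how far partners of a pair differ upstream. Capitals mark site II cores on either strand, and overlapping matches run together, so that TGGGCCCA counts as 2 matches, 1 on each strand.
RPS6A, chr4:15347805-15347954 (minus strand): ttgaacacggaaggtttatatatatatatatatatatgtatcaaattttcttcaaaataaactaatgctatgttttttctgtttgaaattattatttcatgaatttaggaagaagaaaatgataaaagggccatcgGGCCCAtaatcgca
RPS6B, chr5:3260255-3260404 (minus strand): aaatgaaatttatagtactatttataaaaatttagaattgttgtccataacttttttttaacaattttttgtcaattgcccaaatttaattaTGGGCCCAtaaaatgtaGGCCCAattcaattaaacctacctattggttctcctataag
RPL24A, chr2:15352014-15352163 (minus strand): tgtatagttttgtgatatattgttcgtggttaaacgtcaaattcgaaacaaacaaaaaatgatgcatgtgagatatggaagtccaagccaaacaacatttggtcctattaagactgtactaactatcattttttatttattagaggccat
RPL24B, chr3:19662026-19662175 (minus strand): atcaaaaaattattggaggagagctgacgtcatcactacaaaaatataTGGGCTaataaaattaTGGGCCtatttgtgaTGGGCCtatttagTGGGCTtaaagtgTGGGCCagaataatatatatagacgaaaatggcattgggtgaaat
AT3G09630 (RPL4 family), chr3:2953543-2953692 (plus strand): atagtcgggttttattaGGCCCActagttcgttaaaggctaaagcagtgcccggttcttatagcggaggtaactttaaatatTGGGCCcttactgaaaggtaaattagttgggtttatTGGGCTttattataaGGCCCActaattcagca
AT5G02870 (RPL4 family), chr5:657525-657674 (plus strand): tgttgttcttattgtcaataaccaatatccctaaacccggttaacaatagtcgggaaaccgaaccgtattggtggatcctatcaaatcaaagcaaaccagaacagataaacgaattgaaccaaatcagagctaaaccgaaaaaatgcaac
In the stretches shown, RPS6B had 3 matches of the site II core and RPS6A had 1. RPL24B had 5 and RPL24A had 0. AT3G09630 had 4 site II cores and AT5G02870 had 0. A match is a description of the letters, and its absence from a window says nothing about the factor. The median log2 fold of triple mutant over WT was, for the 22 members with a site II core, 0.10, 0.23, 0.65 and 0.64 in flowers, rosette buds, sink leaves and source leaves. For the 15 without one it was 0.086, 0.29, 0.82 and 0.73 in the same order, a split that was not tested.

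In WT plants the ribosomal protein loci were highest in rosette buds, lower in flowers and lowest in both kinds of leaf. The summed CPM of the 37 loci was 10467, 12413 and 10342 in the 3 bud libraries, 9213, 8463 and 8713 in flowers, 5314, 5860.1 and 5684 in sink leaves and 4828, 6311 and 6596 in source leaves. The bud libraries all lay above the flower libraries, which all lay above both leaf groups, while the 2 leaf groups overlapped. The mean summed CPM in WT buds was 1.97 times that in sink leaves. All 37 loci were called higher in WT rosette buds than in WT sink leaves (edgeR quasi-likelihood test with Benjamini-Hochberg adjusted p under 0.05), against 33.1% of all loci tested, with a median log2 fold of 0.87 against 0.019 over all loci. Of the 37 loci 12 were at least 2-fold higher, a cut for which the share over all loci was not computed. The largest rises in buds over sink leaves were those of RPL16A, a large subunit protein (log2 fold 1.71 ± 0.14), of RPS18A, a small subunit protein at the head of the 40S particle (1.34 ± 0.13), and of RPL3A, which lines the peptidyl transferase centre (1.23 ± 0.14). RPS10B had the smallest (0.39 ± 0.10).

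In WT flowers over rosette buds, 20 of the 37 loci were called lower and none higher, against 26.6% of all loci called lower, and leaving out replicate 2 of each WT group reduced the 20 to 6. RPL16A had 13.2, 14.1 and 13.6 CPM in the WT flower libraries, against 22.8, 26.6 and 23.1 CPM in the WT bud libraries, and fell by 0.83 ± 0.13 on the log2 scale. RPS6B had 316, 287 and 307 CPM in WT flowers, against 463, 555 and 479 CPM in WT buds, and fell by 0.72 ± 0.14. In both cases the flower libraries lay wholly below the bud libraries. RPS15A also fell, by 0.65 ± 0.12. In WT flowers over source leaves 32 loci were called higher, against 41.3% of all loci, and 21 without replicate 1, with the largest rises in RPL16A (1.30 ± 0.14), RPL23AB (1.26 ± 0.12), whose protein sits at the exit of the nascent chain tunnel, and RPS6A (1.16 ± 0.16).

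WT sink leaves, which import sugar, and WT source leaves, which export it, had similar medians over the 37 loci. None of the 37 was called in either direction by edgeR, although 22.2% of all loci were, and the median log2 fold of sink over source leaves was -0.037. At an unadjusted p under 0.05, 3 of the 37 passed, and DESeq2 called 1. With no scaling beyond library totals 10 of the 37 were called lower in sink leaves, a setting that also shifted the median of all loci to -0.19. Photosynthesis loci, listed as leaf markers, differed between the same libraries: 7 of 11 were called higher in sink leaves, and so were 18 of 18 plastid ribosomal protein loci and 7 of 13 cell division loci. Of all 21987 loci tested, 2912 were called higher in sink leaves.

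Levels of different genes were set side by side per kilobase of annotated exon. In WT rosette buds they spanned 3.22 to 627 CPM per kilobase, with a median of 234. RPL3A was the highest, followed by the 40S protein gene AT5G20290 (S8e family, 609) and EMB2296 (L2 family, 531), whose protein, like RPL3A, is part of the catalytic core of the large subunit. RPSAb, the second gene of 40S protein SA, was the lowest, and RPL16A (28.5) came next above it. The other 35 loci lay between 95.8 and 627 CPM per kilobase. RPSAb and RPL16A are thus measured with fewer counts than the others, and each of their values carries more counting error. Of the 31-base words of the RPL16A transcript, 11.4% also occurred in the locus AT3G58700, the largest share of any member. For RPS15A, 10.2% occurred in AT1G07780.

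**Figure D1:**
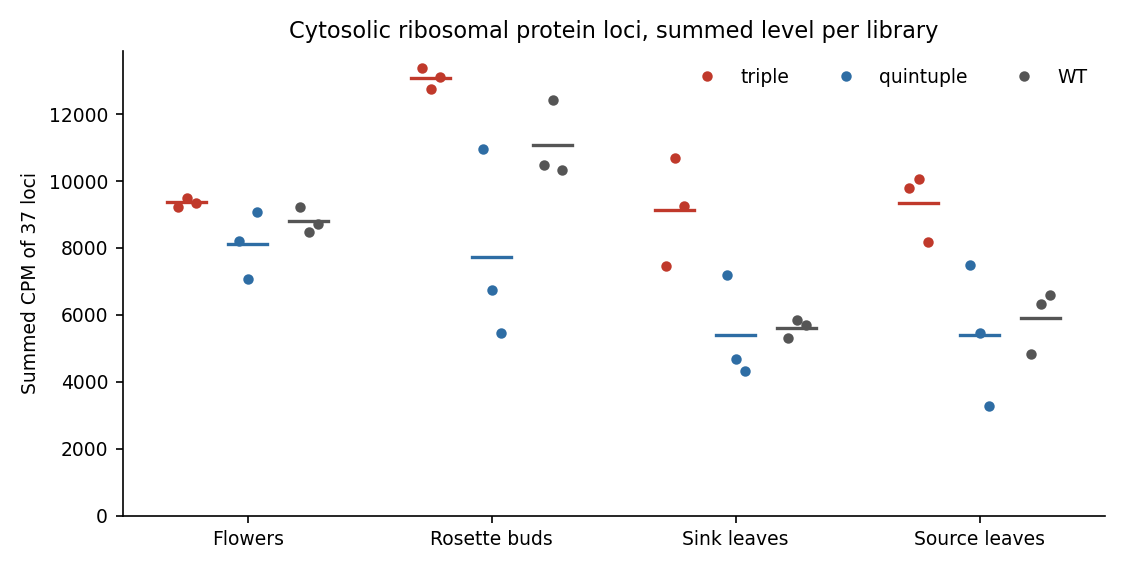
Summed CPM of the 37 cytosolic ribosomal protein loci (vertical axis, from 0) in each of the 36 libraries, by tissue (horizontal axis) and, within a tissue, for triple mutant, quintuple mutant and WT; points are libraries and bars are group means. The triple mutant libraries of sink and source leaves lie above all WT libraries of the same tissue, and 1 quintuple mutant library lies above the other 2 in buds, sink leaves and source leaves.

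In leaves of the triple mutant most of the ribosomal protein loci rose, 34 of 37 in sink leaves and 26 of 37 in source leaves, and none fell. The summed CPM of the 37 loci was 7453, 10680.0 and 9239 in the 3 triple mutant sink leaf libraries, against 5314, 5860.1 and 5684 in the WT ones, and the group means differed 1.62-fold. In source leaves it was 9795, 10061 and 8176 in the triple mutant, against 4828, 6311 and 6596 in WT, a 1.58-fold difference of means. In both tissues every triple mutant library lay above every WT library. For comparison, the means in triple mutant leaves, 9124 ± 1617 in sink and 9344 ± 1020.0 in source leaves (SD), stood near that of WT flowers, 8797 ± 382, and below that of WT buds, 11074 ± 1161. The nearness to WT flowers depended on the scaling. With no scaling beyond library totals the triple mutant means were 6941 in sink and 7754 in source leaves, below 9807 in WT flowers.

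In sink leaves 34 of the 37 loci rose in the triple mutant and none fell (adjusted p under 0.05, edgeR quasi-likelihood test), against 12.4% of all loci called higher and 12.1% called lower. The median log2 fold was 0.72, against 0.021 over all loci tested. Each of the 20 large subunit loci rose, with a median of 0.76, and 14 of the 17 small subunit loci, with a median of 0.68. In 36 of the 37 every triple mutant library lay above every WT library, against 22% of all loci. Leaving out any 1 of the 6 libraries left between 23 and 37 loci called, and a fit of all 9 sink leaf libraries called 17, or 34 when quintuple replicate 1 was left out of it.

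Among small subunit genes of sink leaves, RPSAb had 6.76, 11.2 and 7.36 CPM in the triple mutant libraries, against 2.57, 2.87 and 1.98 CPM in WT, and its log2 fold of 1.78 ± 0.26 was the largest of the set (adjusted p = 0.00292, edgeR). The triple mutant values were low in absolute terms and still lay wholly above the WT values. RPS6A, which encodes the S6 protein that S6 kinases phosphorylate, had 187, 292 and 257 CPM in the triple mutant, against 109, 130.3 and 122 CPM in WT (log2 fold 1.04 ± 0.17, edgeR adjusted p = 0.00397). The groups did not overlap, and the WT libraries lay close together. Its partner RPS6B had 252, 389.6 and 338 CPM, against 226, 263 and 220.1 CPM in WT (log2 fold 0.48 ± 0.17, not called). RPS6B was the only member whose triple mutant and WT sink leaf libraries overlapped. The other loci that missed the threshold were RPS15A (0.39 ± 0.14) and RPS18C (0.30 ± 0.11), both of the small subunit. RPS18A, the paralog of RPS18C, rose by 0.87 ± 0.17. PFL2 (RPS13A) rose by 0.64 ± 0.14, the S3 family gene AT2G31610, whose protein lies at the mRNA entry of the 40S subunit, by 0.68 ± 0.15, and RPSAA, the abundant gene of protein SA, by 0.72 ± 0.14.

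Among large subunit genes of sink leaves, RPL5A, whose protein binds the 5S ribosomal RNA, had 395, 623 and 514 CPM in the triple mutant, against 215, 249 and 258 CPM in WT (log2 fold 1.10 ± 0.17, edgeR adjusted p = 0.00333). All 3 triple mutant libraries were higher than any WT library. Its partner RPL5B rose by 0.91 ± 0.14 and RPL16A by 1.03 ± 0.21. Both RPL4 genes, whose protein forms part of the exit tunnel, rose: AT5G02870 had 393, 549 and 493 CPM, against 244, 276 and 298 CPM in WT (log2 fold 0.82 ± 0.15), and AT3G09630 had 337, 468 and 406 CPM, against 257, 273 and 280.2 CPM in WT (log2 fold 0.59 ± 0.14). Neither gene's groups overlapped. The tunnel exit genes RPL23AA and RPL23AB rose by 0.86 ± 0.14 and 0.86 ± 0.13. PGY1, an L10a gene known from leaf polarity mutants, rose by 0.77 ± 0.18, RPL24B, known for reinitiation of translation downstream of upstream open reading frames, by 0.68 ± 0.15, and RPL10A, a gene of the L10e family, by 0.64 ± 0.15. EMB2296 (0.55 ± 0.15) had the smallest rise of the large subunit.

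In source leaves 26 of the 37 loci rose in the triple mutant and none fell, against 8.86% of all loci called higher. All 26 were among the 34 that rose in sink leaves. The median log2 fold was 0.68, against -0.0081 over all loci, with 16 of 20 large subunit and 10 of 17 small subunit loci called. In 36 loci every triple mutant library lay above every WT library, against 17.7% of all loci, RPS15A being the exception. RPSAb had 7.29, 9.27 and 6.48 CPM in the triple mutant, against 2.10, 3.74 and 4.0 CPM in WT (log2 fold 1.25 ± 0.26, edgeR adjusted p = 0.0151). RPL16A had 9.57, 13.2 and 9.35 CPM, against 4.95, 4.91 and 6.19 CPM in WT (log2 fold 1.02 ± 0.19). RPS6A had 233, 251 and 196 CPM, against 88.1, 124 and 136 CPM in WT (log2 fold 0.99 ± 0.17). In each of these genes the groups stood apart. RPS6B had 436, 387 and 309.9 CPM, against 209, 299 and 289 CPM in WT, and was not called (log2 fold 0.53 ± 0.18). AT5G02870 had 512, 548 and 451 CPM in the triple mutant, against 237, 295 and 309 CPM in WT, and rose by 0.86 ± 0.15. AT3G09630 had 463, 479 and 402 CPM in the triple mutant, against 261, 327 and 347 CPM in WT, and rose by 0.54 ± 0.15. The count of calls fell to 6 without triple replicate 2, 11 without WT replicate 1 and 17 without WT replicate 2. A fit of all 9 source leaf libraries called 0, or 15 with quintuple replicate 1 left out.

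In rosette buds, the tissue in which WT levels were highest, 13 of the 37 loci rose in the triple mutant and none fell, against 7.62% of all loci called higher. All 13 also rose in both leaf tissues. The summed CPM was 13386, 12755 and 13101 in the triple mutant libraries, against 10467, 12413 and 10342 in WT, the mean being 1.18 times that of WT. The median log2 fold was 0.24, against -0.0063 over all loci, and in 24 loci the triple mutant libraries lay wholly above WT, against 18.8% of all loci. RPSAb had 7.66, 7.78 and 9.80 CPM, against 4.06, 5.55 and 4.63 CPM in WT (log2 fold 0.83 ± 0.16). RPS6A had 359, 351 and 363 CPM, against 257, 322 and 238 CPM in WT (log2 fold 0.40 ± 0.11). RPS6B had 536, 498 and 533 CPM, against 463, 555 and 479 CPM in WT (log2 fold 0.071 ± 0.10, not called). RPS6A thus stood above WT in each library, whereas the RPS6B groups overlapped. AT5G02870 rose, with 609, 583 and 602 CPM, against 459, 516 and 431 CPM in WT (log2 fold 0.36 ± 0.091). AT3G09630 had 621, 589 and 607 CPM, against 548, 606 and 551 CPM in WT (log2 fold 0.10 ± 0.085, not called). AT2G01250, of the L30/L7 family, rose by 0.39 ± 0.11. Leaving out any 1 library moved the count: without triple replicates 1, 2 and 3 the count was 2, 1 and 1, without WT replicates 1 and 3 it was 1 and 3, and without WT replicate 2 it was 28. In a fit of all 9 bud libraries it was 0, or 3 without quintuple replicate 1.

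In flowers the differences were small. RPS6B, RPS15A, RPL3A and RPS18C were called higher in the triple mutant, 4 of 37 against 11% of all loci, and none was called lower. The summed CPM was 9236, 9497 and 9354 in triple mutant flowers, against 9213, 8463 and 8713 in WT flowers, and all 3 triple mutant libraries lay above WT. RPS6B had 364, 375 and 354 CPM, against 316, 287 and 307 CPM in WT (log2 fold 0.29 ± 0.069, edgeR adjusted p = 0.0134). RPS15A had 226, 244 and 213 CPM, against 203, 183 and 198 CPM in WT (log2 fold 0.25 ± 0.076), and RPL3A 853, 878 and 851 CPM, against 768, 719 and 751 CPM in WT (log2 fold 0.23 ± 0.069). Triple mutant flowers lay wholly above WT in all 3 genes. RPS6A, in contrast with RPS6B, had 273, 266 and 287 CPM, against 285, 252 and 263 CPM in WT, and the groups overlapped (log2 fold 0.068 ± 0.073). AT3G09630 (412, 413 and 408 CPM, against 397, 380.1 and 393 CPM in WT) and AT5G02870 (460.4, 455 and 475 CPM, against 463, 427 and 432 CPM) were not called. The 4 calls are near the share over all loci. RPS6B, RPS15A and RPS18C, 3 of the 4, were not called in sink leaves. Their log2 folds there (0.48, 0.39 and 0.30) were nevertheless larger than in flowers (0.29, 0.25 and 0.21). Leaving out 1 library gave 0 to 2 calls (2, 0 and 1 without WT replicates 1, 2 and 3, and 1, 2 and 2 without triple replicates 1, 2 and 3). A fit of all 9 flower libraries called 0.

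**Figure D2:**
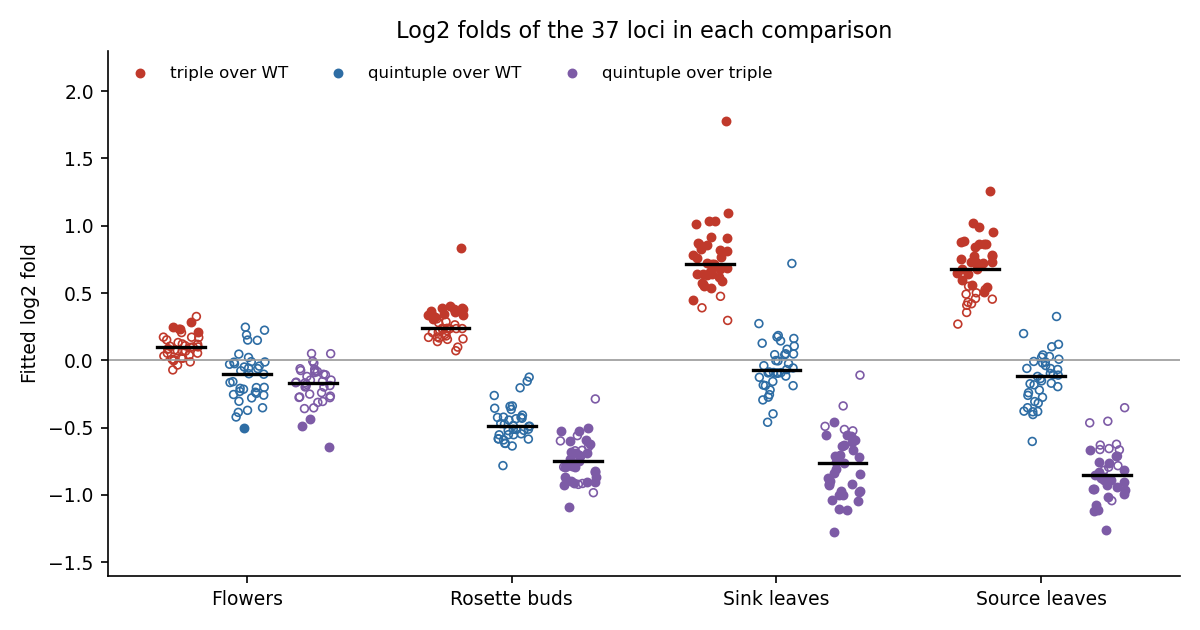
Fitted log2 folds (vertical axis) of the 37 loci in triple mutant over WT, quintuple mutant over WT and quintuple over triple mutant, by tissue (horizontal axis). Each point is a locus, filled points are called at an adjusted p under 0.05, open points are not, and black bars are medians over the 37 loci, which reach 0.72 in triple mutant sink leaves and -0.85 for quintuple over triple mutant source leaves.

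Whether the difference between triple mutant and WT varied among tissues was tested with 3 genotype by tissue terms in 24 libraries. The test called 26 of the 37 loci (adjusted p under 0.05, edgeR quasi-likelihood test), against 16.4% of all loci. The smallest adjusted p values among the members reported here were those of RPS10B (0.00202), AT1G70600 of the L18e/L15 superfamily (0.00319), RPL23AB (0.00394), RPL5A (0.00424) and AT5G02870 (0.00575), by edgeR. RPS10B, for example, had log2 folds of 0.72 ± 0.12 in source leaves, 0.62 ± 0.12 in sink leaves, 0.38 ± 0.077 in rosette buds and 0.038 ± 0.062 in flowers. Its triple mutant CPM was 137, 138 and 141 in flowers, against 137, 135 and 141 in WT flowers, and 170.4, 196 and 183 in source leaves, against 109, 106 and 122 in WT source leaves. Both leaf folds were thus well above the flower fold, with buds between. Leaving out replicate 1, 2 or 3 of each group reduced the 26 to 12, 0 or 6. For the quintuple mutant the same test called 0 of 37 (edgeR), against 23.2% of all loci, with 0 at an unadjusted p under 0.05 and 0 called by DESeq2. Without quintuple replicate 1 of buds, sink leaves and source leaves, a fit chosen after seeing the data, it called 6 of 37, against 40.8% of all loci.

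In the quintuple mutant 1 of the 37 loci was called against WT, in flowers, and none in the other 3 tissues, where the summed CPM averaged 7730.2 ± 2879 in buds, 5403 ± 1572 in sink and 5408 ± 2111 in source leaves (SD), against 11074 ± 1161, 5619.6 ± 279 and 5912 ± 949.6 in WT. In rosette buds the summed CPM was 10971, 6752 and 5467 in quintuple mutant replicates 1, 2 and 3, against 10467, 12413 and 10342 in WT, so replicate 1 lay within the WT range and the other 2 below it. With all libraries 0 of 37 were called by edgeR, 0 had an unadjusted p under 0.05 and DESeq2 called 0, and only 2.27% of all loci were called. Without quintuple replicate 1, 36 of the 37 fell, with a median log2 fold of -0.88, but 52.4% of all loci were then called (26.2% lower). RPS6A had 306, 142 and 105 CPM in quintuple mutant buds, against 257, 322 and 238 CPM in WT, and RPS6B 443, 343 and 285 CPM, against 463, 555 and 479 CPM. The RPL4 loci showed the same order of replicates. AT3G09630 had 528, 332 and 287 CPM, against 548, 606 and 551 CPM in WT, and AT5G02870 496, 245 and 190.4 CPM, against 459, 516 and 431 CPM. Other lists followed the same replicates: summed photosynthesis loci stood at 11193, 4087 and 1986 CPM and cell division loci at 332, 122 and 81.3 CPM in these 3 libraries, against 21579.6, 16549 and 13994 and 282, 337 and 283 CPM in WT. The part of these differences in the ribosomal protein values was not tested.

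In quintuple mutant sink leaves the summed CPM was 7205, 4695 and 4309, against 5314, 5860.1 and 5684 in WT, and no locus was called by edgeR (0 at an unadjusted p under 0.05 and 0 by DESeq2), although 24.8% of all loci were. The median log2 fold was -0.069, and in all 37 loci the groups overlapped. Without quintuple replicate 1, 12 loci fell, against 13.8% of all loci. With no scaling beyond library totals 3 loci were called higher and the median turned to 0.35, while the median of all loci moved to 0.44. RPS6A had 155, 105 and 75.8 CPM, against 109, 130.3 and 122 CPM in WT, and RPS6B 283, 202 and 184 CPM, against 226, 263 and 220.1 CPM. In both genes all WT libraries lay inside the span of the quintuple mutant ones. AT3G09630 had 344, 234 and 210.5 CPM, against 257, 273 and 280.2 CPM in WT, and AT5G02870 346, 224 and 176 CPM, against 244, 276 and 298 CPM.

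In quintuple mutant source leaves the summed CPM was 7491, 5462 and 3269.7, against 4828, 6311 and 6596 in WT, the widest spread of the 12 groups relative to its mean. No locus was called by edgeR (0 at an unadjusted p under 0.05 and 0 by DESeq2), against 18% of all loci, and 2 fell without quintuple replicate 1, against 20.5% of all loci then called lower. RPS6A had 180.3, 103 and 53.1 CPM, against 88.1, 124 and 136 CPM in WT, and RPS6B 305, 249 and 153 CPM, against 209, 299 and 289 CPM. Replicate 1 was the highest and replicate 3 the lowest quintuple mutant library in both genes. AT3G09630 had 382, 301 and 183 CPM, against 261, 327 and 347 CPM in WT, and AT5G02870 411, 253 and 139 CPM, against 237, 295 and 309 CPM.

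In quintuple mutant flowers the summed CPM was 8212, 7058 and 9084, against 9213, 8463 and 8713 in WT. Over all loci replicate 3 stood apart, with a chi-square per locus of 67.8 and 81.2 against replicates 1 and 2, which differed from each other by 25.3. Cell division loci summed to 197, 142 and 356 CPM in quintuple mutant replicates 1, 2 and 3, against 342, 332 and 306 CPM in WT, and plastid ribosomal protein loci to 2233, 2129 and 3869 CPM, against 2334, 2177 and 2283 CPM. The S21e gene AT3G53890, whose yeast counterpart works with protein SA in late 18S ribosomal RNA maturation, was the only one of the 37 called, against 38.6% of all loci. It had 55.0, 44.1 and 58.0 CPM in the quintuple mutant, against 79.5, 72.3 and 77.0 CPM in WT, and fell by 0.51 ± 0.12 on the log2 scale (edgeR adjusted p = 0.0165). The 2 groups stood clearly apart. In 11 loci all quintuple mutant flower libraries lay below WT, against 29.9% of all loci, and in 2 they lay above, against 25.9%. RPS6A had 230.1, 170.5 and 243 CPM, below WT at 285, 252 and 263 CPM, and RPS6B 321, 318 and 345 CPM, above WT at 316, 287 and 307 CPM. Neither was called (log2 folds -0.28 ± 0.16 and 0.15 ± 0.12). AT3G09630 had 378, 323 and 406 CPM, against 397, 380.1 and 393 CPM in WT, and AT5G02870 377, 301 and 409.7 CPM, against 463, 427 and 432 CPM. The single call was absent without WT replicate 1 or WT replicate 3, and 7 loci fell when quintuple replicate 3 was left out, against 25.2% of all loci then called lower. Quintuple mutant flowers also held different amounts of anther transcripts: the pollen gene AGP11 (AT3G01700) averaged 72.5 CPM, against 571 CPM in WT, and the 3 listed pollen loci all fell, with sums of 864, 1213 and 240.5 CPM, against 5138, 4896 and 4811 CPM, while the tapetum gene AMS (AT2G16910) averaged 38.2 CPM, against 1.19 CPM. The 3 pollen loci fell in triple mutant flowers too, which had 135 CPM of AGP11 and 12.9 CPM of AMS. The part of these cells, and of replicate 3, in the flower values was not tested.

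Set against the triple mutant, the quintuple mutant had lower ribosomal protein transcripts in buds and in both leaf tissues. In models of the 9 libraries of a tissue, 26 of 37 loci fell in quintuple over triple mutant rosette buds, 32 in sink leaves, 23 in source leaves and 3 in flowers, and none rose. The shares of all loci called lower were 15.7%, 20.7%, 18.3% and 14.5%. The median log2 folds of the 37 loci were -0.75, -0.76, -0.85 and -0.17 in the same order, against -0.0078, 0.013, -0.033 and -0.0039 over all loci. In buds all 37 loci were lower in every quintuple mutant library than in any triple mutant library, against 31.4% of all loci. The same held for 24 loci in sink leaves, 32 in source leaves and 20 in flowers, against 26.9%, 24.4% and 27% of all loci. RPL24A, a large subunit gene of the L24 family, fell most in buds and sink leaves and had 55.3, 30.1 and 23.1 CPM in quintuple mutant sink leaves, against 69.6, 104 and 93.1 CPM in triple mutant ones. It fell by 1.28 ± 0.28 on the log2 scale there and by 1.09 ± 0.32 in buds. In source leaves the largest falls were those of RPL16A (1.26 ± 0.34), RPL18 (1.12 ± 0.34) and RPL24A (1.11 ± 0.35). RPL16A had 7.13, 4.05 and 2.55 CPM in quintuple mutant source leaves, against 9.57, 13.2 and 9.35 CPM in triple mutant ones, and RPL18 247, 145 and 85.4 CPM, against 374, 360.3 and 285 CPM. In both genes replicate 1 was the highest of the quintuple mutant libraries. RPS6A fell by 1.11 ± 0.24 and AT3G53890 by 1.11 ± 0.28 in sink leaves. RPS18C had the smallest difference in all 3 tissues, with -0.29, -0.11 and -0.35 in buds, sink leaves and source leaves, and was called in none. In flowers the 3 that fell were RPSAb (0.65 ± 0.18), RPL23AB (0.49 ± 0.12) and AT3G53890 (0.44 ± 0.10). RPSAb had 4.84, 4.21 and 5.14 CPM in quintuple mutant flowers, against 7.90, 7.67 and 7.42 CPM in triple mutant flowers, and RPL23AB 85.3, 62.0 and 85.4 CPM, against 114, 112 and 112 CPM, with no overlap in either gene.

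Each of these counts depended on single libraries. Without quintuple replicate 1 they were 37 in buds and 36 in each kind of leaf, against 33.1%, 22.2% and 27.1% of all loci called lower. In buds 0 loci were called without any 1 of triple replicates 1, 2 and 3 or without quintuple replicate 2 or 3. In sink leaves 12 were called without triple replicate 2 and 20 without quintuple replicate 2. In source leaves the count was 1, 0 and 4 without triple replicates 1, 2 and 3, and 0 and 1 without quintuple replicates 2 and 3. In flowers 14 fell without quintuple replicate 3, against 21.2% of all loci. With no scaling beyond library totals the counts were 12, 6, 6 and 5 in buds, sink leaves, source leaves and flowers. The comparisons of each mutant with WT share the WT libraries, and those of the mutants share the mutant libraries with them, so they are not independent of each other.

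The set held 10 pairs of paralogs, each of 2 genes for 1 protein, and the genes of a pair did not always move together. Paralogs shared few sequence words: at most 4.15% of the 31-base words of a transcript occurred in its partner (RPL5B in RPL5A). The ratio of the 2 genes was taken within each library as the log2 ratio of CPM + 1, and is a description without a test. In sink leaves RPS6A stood at -0.43, -0.42 and -0.39 relative to RPS6B in triple mutant libraries, at -0.87, -0.94 and -1.27 in the quintuple mutant and at -1.05, -1.01 and -0.85 in WT. The triple mutant ratios lay wholly above WT in sink leaves, source leaves and rosette buds and wholly below WT in flowers, where the means were -0.40 ± 0.094 in the triple mutant, -0.63 ± 0.24 in the quintuple mutant and -0.19 ± 0.039 in WT (SD). In WT itself the RPS6A share was highest in flowers: the mean log2 ratio was -0.88 ± 0.12 in buds, and -0.97 ± 0.10 and -1.20 ± 0.10 in sink and source leaves.

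**Figure D3:**
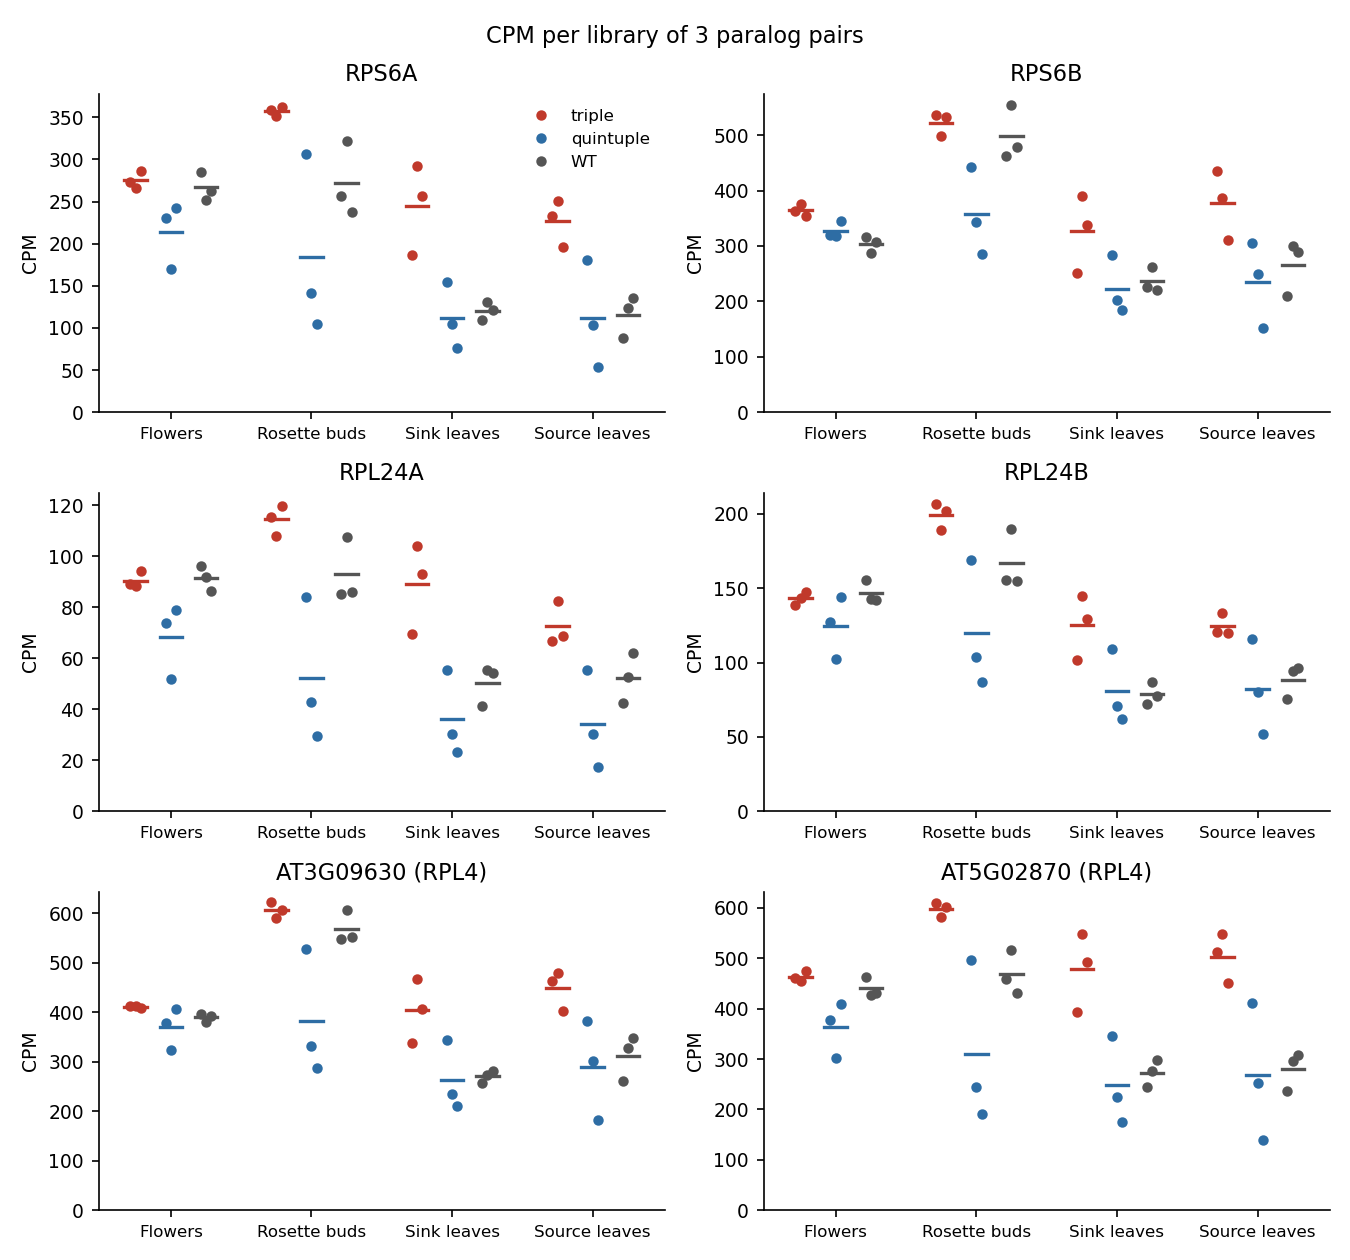
CPM per library (vertical axes, from 0) of the paralog pairs RPS6A and RPS6B, RPL24A and RPL24B, and the RPL4 genes AT3G09630 and AT5G02870, by tissue (horizontal axis) and by genotype (triple mutant, quintuple mutant, WT); points are libraries and bars are means. In sink and source leaves the triple mutant points of each gene shown lie wholly above those of WT, except for RPS6B in sink leaves, where they overlap.

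RPS18A relative to RPS18C stood at -0.92, -0.49 and -0.71 in triple mutant sink leaves, -1.06, -1.51 and -1.96 in the quintuple mutant and -1.40, -1.15 and -1.21 in WT. For RPL4 the order of the partners differed between tissues and genotypes: AT3G09630 relative to AT5G02870 stood at 0.029, 0.016 and 0.011 in triple mutant buds, 0.089, 0.44 and 0.59 in quintuple mutant buds and 0.26, 0.23 and 0.35 in WT buds, and at -0.14, -0.19 and -0.17 in triple mutant source leaves, -0.11, 0.25 and 0.39 in quintuple mutant ones and 0.14, 0.14 and 0.17 in WT. The ratio was thus below 0 in every triple mutant source leaf library and above 0 in every WT bud and source leaf library.

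RPL24 was the pair that set the quintuple mutant apart from both other genotypes. RPL24A relative to RPL24B stood at -0.97, -1.21 and -1.39 in quintuple mutant sink leaves, -0.54, -0.47 and -0.47 in triple mutant ones and -0.79, -0.64 and -0.50 in WT. In all 4 tissues every quintuple mutant library, replicate 1 included, had a lower ratio than any triple mutant or WT library. The differences of means between quintuple mutant and WT were -0.19 in flowers, -0.42 in buds, and -0.55 and -0.56 in sink and source leaves. The RPL24A values behind them were 55.3, 30.1 and 23.1 CPM in quintuple mutant sink leaves, against 41.3, 55.4 and 54.3 CPM in WT, and the RPL24B values 109, 71.1 and 62.2 CPM, against 72.0, 87.1 and 77.5 CPM. Both genes were below WT in quintuple replicates 2 and 3, RPL24A by more. For protein SA, the rare gene RPSAb gained on RPSAA in sink leaves of both mutants: the log2 ratio of RPSAA to RPSAb was 5.49, 5.36 and 5.68 in triple mutant sink leaves, 5.63, 5.97 and 6.07 in quintuple mutant ones and 6.15, 6.15 and 6.43 in WT. Of the 31-base words of RPSAb, 6.93% also occurred in the locus AT3G04780. The ratios overlapped those of WT in triple mutant flowers and source leaves (differences of means -0.20 and -0.19) and in quintuple mutant flowers (0.26) and buds (-0.24). On raw counts, without the added 1 CPM, the difference between triple mutant and WT sink leaves in this pair was -1.06 in place of -0.73. The other pairs described, RPL5, RPL23a, RPS13 and RPL38, had differences of means between triple mutant and WT sink leaves of 0.18 (RPL5A to RPL5B), 0.0079 (RPL23AA to RPL23AB, and -0.0011 on raw counts), -0.14 (RPS13A to AT3G60770) and -0.14 (AT2G43460 to AT3G59540).

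**Figure D4:**
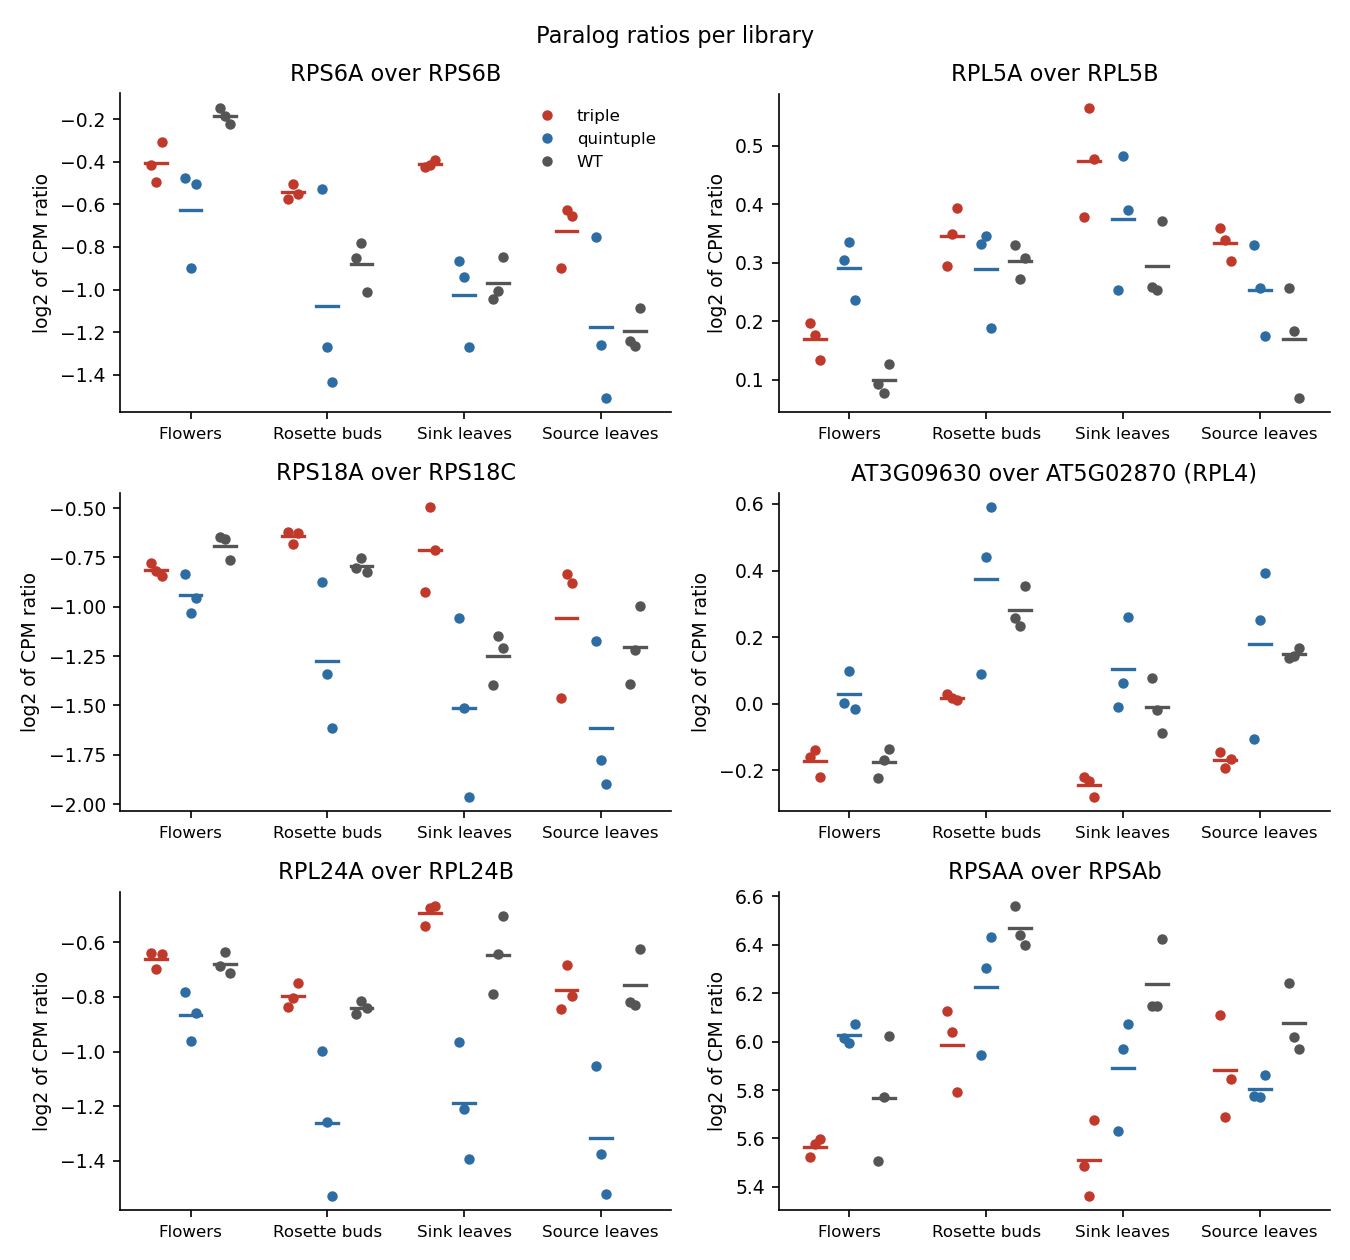
Log2 ratio of CPM + 1 between the genes of 6 paralog pairs (vertical axes) in each library, by tissue (horizontal axis) and by genotype (triple mutant, quintuple mutant, WT); bars are group means. RPL24A over RPL24B is lower in each quintuple mutant library than in any WT library of its tissue, and RPS6A over RPS6B is higher in triple mutant than in WT leaves.

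Lists of related genes were counted in the same comparisons. A list of 69 other loci held those whose RefSeq product names matched a set pattern of ribosomal protein names. Most of the matched names give only a family, so the list may hold loci that do not encode cytosolic ribosomal proteins. It also lacks loci whose ribosomal names fall outside the pattern, such as AT5G56670 (S30 family) and AT5G60670 (L11 family). The list is therefore not the whole rest of the family. The list had 46 of 61 tested loci called higher and 5 lower in triple mutant sink leaves (median log2 fold 0.62). It had 25 higher and 3 lower of 60 in source leaves (0.49). In buds it had 9 and 3 of 63, and in flowers 7 and 3 of 63, against 7.62% and 11% of all loci called higher. The flower count of loci called higher is thus near the share over all loci. In the quintuple mutant it had 2 higher and 1 lower of 61 in sink leaves, against 24.8% of all loci called in either direction. Ribosome biogenesis factors, which modify and fold ribosomal RNA in the nucleolus, were counted in the same way: 24 of 26 rose in triple mutant sink leaves (median log2 fold 1.01), 23 of 27 in source leaves (0.86), 14 of 27 in buds (0.34) and 15 of 27 in flowers (0.24). FIB2 (AT4G25630), a fibrillarin that methylates ribosomal RNA, rose by 2.17 ± 0.19 in triple mutant sink leaves and by 1.83 ± 0.25 in source leaves. EDA25 (AT1G72440) rose by 1.46 ± 0.12 and 1.06 ± 0.16 in the same tissues. In quintuple mutant sink leaves, where no ribosomal protein member was called, 8 of 27 biogenesis loci rose, against 2285 of all 19198 loci tested. Among them were MTR4 (AT1G59760), a helicase of the nuclear exosome (0.64 ± 0.13), and PUM23 (AT1G72320, 0.73 ± 0.15).

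Translation factors had 10 of 18 loci called higher in triple mutant sink leaves (median log2 fold 0.39) and 6 in source leaves, led by the poly-A binding protein genes PAB4 (AT2G23350, 0.98 ± 0.13 in sink leaves) and PAB8 (AT1G49760, 0.92 ± 0.13). Of the TOR and S6 kinase list, with 5 loci tested, the S6 kinase gene PK1 (AT3G08730) rose (0.71 ± 0.14) and S6K2 (AT3G08720) fell by 0.49 ± 0.12 in triple mutant sink leaves. In quintuple mutant sink leaves S6K2 rose by 0.55 ± 0.16. Plastid ribosomal protein loci, whose products translate chloroplast messages, had 14 of 18 called higher in triple mutant sink leaves and 1 in source leaves, and 18 of 18 called lower in quintuple mutant sink leaves (median -0.91). Photosynthesis loci had 1 called higher and 2 lower of 11 in triple mutant sink leaves and 10 of 11 lower in quintuple mutant sink leaves (-1.35). Of all 19198 loci tested in quintuple mutant sink leaves, 2484 were called lower. Cell division loci had 11 of 13 called higher in triple mutant buds (median 0.75), 6 in sink leaves (0.55) and 5 in source leaves (0.50). The summed CPM of the cell division loci was 125, 133 and 134 in triple mutant sink leaves, against 88.9, 89.8 and 91.3 in WT, and 82.9, 111 and 89.9 in triple mutant source leaves, against 62.6, 70.9 and 71.8 in WT. Both sets of triple mutant libraries lay above WT, and the part of dividing cells in the ribosomal protein values was not tested.

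**Figure D5:**
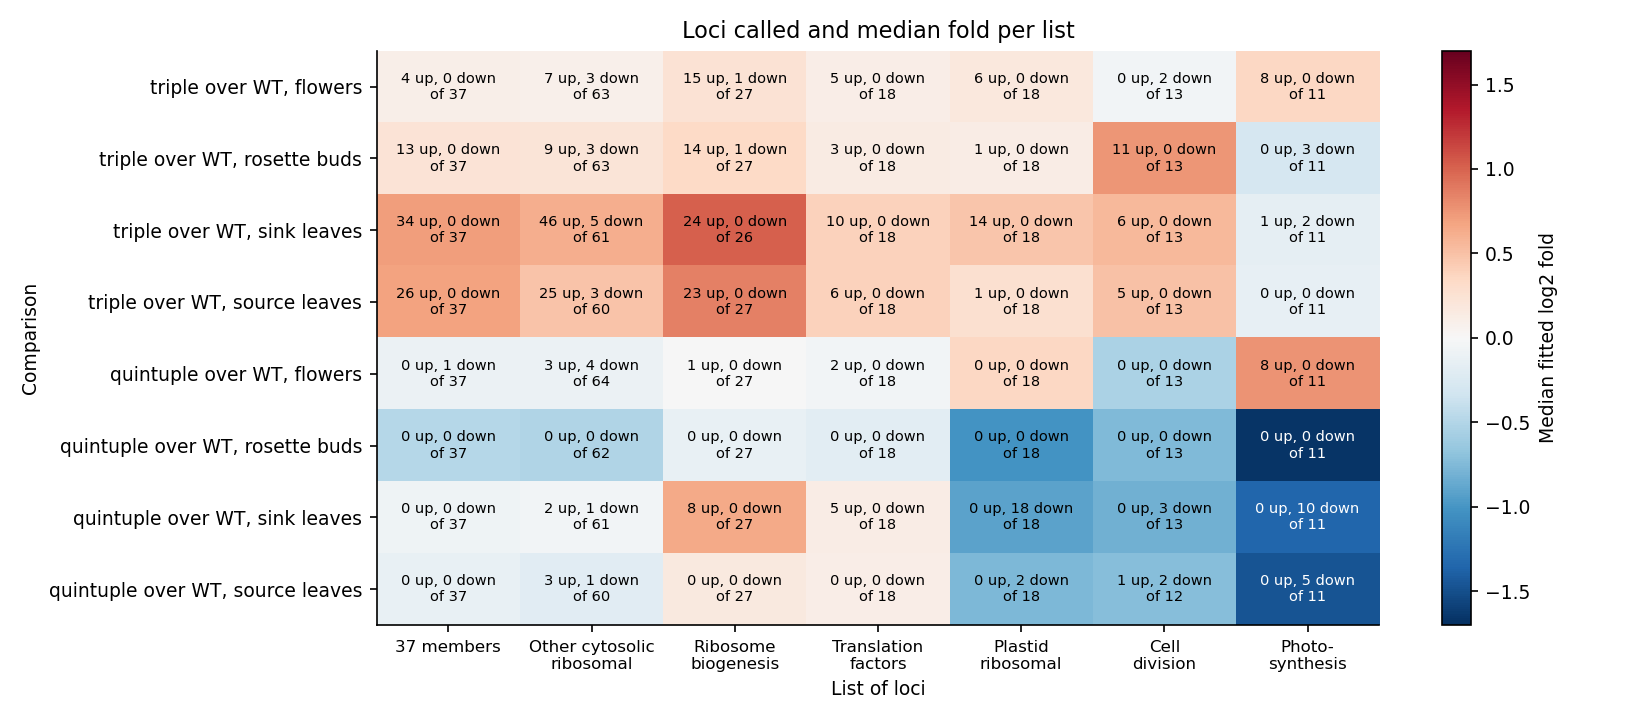
Median fitted log2 fold (colour, red higher and blue lower in the mutant) of the 37 loci and of 6 other lists (horizontal axis) in the 8 comparisons of a mutant with WT (vertical axis), with the number of loci called higher and lower of those tested in each cell. The 37 loci and the ribosome biogenesis loci are red in triple mutant leaves, and photosynthesis and plastid ribosomal loci are blue in quintuple mutant buds and leaves.

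The pattern over the 12 group means was shared by most members. The Pearson correlation of a member's log2 CPM with the mean of the other 36, over 12 group means that share libraries and scaling, ran between 0.782 for RPSAb and 0.993 for AT2G01250, and was at least 0.9 for 33 of the 37. The next lowest were RPS18C (0.847), RPS10B (0.848) and RPL10A (0.895). Among 19946 loci outside the set with a mean of at least 1 CPM, the 5 whose log2 CPM correlated best with the members' mean were AT5G56670 of the S30 family (0.996), AT5G16130 of the S7e family (0.995), AT2G27710 of the 60S acidic protein family (0.995), EMB1080, described as a nucleic acid-binding OB-fold protein (0.992), and AT5G60670 of the L11 family (0.991). By group mean, the highest level of the set was in rosette buds for 36 of 37 loci in the triple mutant, for 11 in the quintuple mutant and for 34 in WT, and in flowers for 0, 26 and 3 in the same order of genotypes. The quintuple mutant counts rested on replicate 1: without it in buds and both kinds of leaf, the highest level was in buds for 1 locus (RPS18C, named after its value was seen) and in flowers for 36. Without the same libraries the correlation with the other members ran between 0.798 for RPS18C and 0.995 for AT2G01250 and was at least 0.9 for 33 loci, and AT5G56670, AT5G16130 and AT2G27710 stayed among the 5 loci most like the set.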

How the data were processed

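RNA-seq counts per locus were read from the 8 tables that the authors deposited, each of raw whole-number counts for 28775 loci in libraries of 1 mutant and WT of 1 tissue. The 12 WT columns were identical in the tables they share, and a column's tissue was taken from its table. The submitters' processing notes name the TAIR10 build, edgeR, DESeq2, R 3.5.1, SAMtools 0.1.18 and Salmon 0.7.2, with no role or order. The sources used here do not say how fragments became whole counts or whether strand was used.

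The members and lists were chosen with earlier results of these data known. Each comparison was fitted over all loci with edgeR 4.0.16 (quasi-likelihood test, TMM factors, filterByExpr, Benjamini-Hochberg adjustment, threshold 0.05) in R 4.3.3 with limma 3.58.1. Each mutant was compared with WT in the 6 libraries of a tissue, quintuple with triple mutant in the 9 libraries of a tissue, and WT tissues in the 12 WT libraries. Errors of log2 folds are standard errors. Alternatives used other size factors, no scaling, no filter, no organelle loci, other sets of libraries, a replicate block and DESeq2 1.42.0. The fits were first tested on simulated data. CPM, ratios and figures used matplotlib 3.10.9, pandas 2.3.3, numpy 2.4.6 and scipy 1.17.1 in Python 3.11.15.

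Values of every library are given for RPS6A, RPS6B and the RPL4 loci AT3G09630 and AT5G02870 in each mutant comparison with WT, and for members with the largest called changes. Of other lists, loci among the 3 smallest p-values of a comparison are named. A pair of members is counted in the set but not reported here by name.

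By the data and not the labels, same-numbered libraries were taken to deviate together where every correlation was over 0.1. This held in 1 of the 16 comparisons, WT sink over source leaves (correlations 0.180, 0.186 and 0.317), where a replicate block left the count of called members at 0. Of other tissue pairs within a genotype, it held for quintuple mutant buds and source leaves (0.630, 0.237 and 0.546), and the block left the quintuple by tissue count at 0. Between replicates, chi-square per locus was between 5.83 and 201, so no library repeated another. Intervals are not given for counts, since the spread between replicates exceeds counting error.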

Additional observations from a re-analysis of the deposited data

Results flagged for a closer look

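The difference between triple mutant and WT differed among the 4 tissues for 26 of the 37 members, by edgeR's quasi-likelihood test of the genotype by tissue terms with Benjamini-Hochberg adjustment over all loci. The smallest adjusted p values from edgeR among the members reported here were 0.00202 for RPS10B, 0.00319 for AT1G70600, 0.00394 for RPL23AB, 0.00424 for RPL5A and 0.00575 for AT5G02870. Leaving out replicate 1, 2 or 3 of every group reduced the 26 to 12, 0 or 6.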

How the results depend on the processing

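Of 208 alternative medians of the members, 196 stayed within the allowed change. With no scaling, members called were 16 in triple mutant over WT flowers (4 as reported above), 20 in buds (13), 3 in quintuple mutant over WT sink leaves (0), 12, 6, 6 and 5 in quintuple over triple mutant buds, sink leaves, source leaves and flowers (26, 32, 23 and 3), and 10 in WT sink over source leaves (0). The medians turned to 0.35 and 0.080 in quintuple mutant over WT sink and source leaves, and leaving out 1 library gave them ranges of -0.30 to 0.075 and -0.52 to 0.15, positive without quintuple replicate 3. The WT sink over source median ran between -0.14 and 0.028 and was positive without replicate 3. The mean summed CPM without scaling was 11331 in triple mutant flowers, 16149.8 in buds, 6941 in sink and 7754 in source leaves, 9744 in quintuple mutant flowers, and 9807, 13021, 3974 and 4736.5 in WT flowers, buds, sink and source leaves. A fit of all 9 libraries called 0, 0, 17 and 0 members in triple mutant over WT flowers, buds, sink and source leaves and 3 in quintuple mutant over WT flowers; without quintuple replicate 1, a fit chosen after seeing the data, the triple mutant counts were 0, 3, 34 and 15, and without replicate 1 of quintuple buds and leaves the quintuple by tissue test called 6 (0). TMM over 36 libraries gave 1 in triple mutant and 2 in quintuple mutant over WT flowers. DESeq2 gave 2 in quintuple mutant over WT flowers, 8 in quintuple over triple mutant flowers and 1 in WT sink over source leaves, where RLE factors also gave 1. Without organelle loci, 2 were called in quintuple mutant over WT flowers and 15 in quintuple over triple mutant source leaves. On raw counts the RPL23a and RPSa differences were -0.0011 and -1.06. The cause of these changes was not tested.

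With the replicate number as a block, 1, 1 and 16 members were called in triple mutant over WT flowers, buds and source leaves and 15 in quintuple over triple mutant source leaves; the other counts stayed within 1.5 times. By the cut-off of 0.1 for every correlation, replicate numbers did not pair these libraries. In triple mutant over WT sink leaves the correlations were 0.215, 0.0886 and 0.203, and every library correlated best with its own number. Leaving out 1 library gave 0 to 2, 1 to 28, 23 to 37 and 6 to 29 calls in triple mutant over WT flowers, buds, sink and source leaves, 0 to 7, 0 to 36, 0 to 12 and 0 to 2 in quintuple mutant over WT, and 2 to 14, 0 to 37, 12 to 36 and 0 to 36 in quintuple over triple mutant, in the same tissue order. Leaving out a replicate number gave 6 to 19 in WT flowers over buds, 21 to 31 in WT flowers over source leaves and 0 to 12 for the triple mutant interaction. Of 661 alternatives for 52 results on single genes, 135 lost the call and 0 reversed. A group had 3 libraries, so a fold within their spread was not detectable.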
